A study of Mus musculus with 4 samples.

Results

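The antioxidant enzymes described here are 10 genes of superoxide, peroxide and thiol defence: Sod1, Sod2, Cat, Gpx1, Gpx3, Gpx4, Prdx1, Prdx3, Prdx5 and Txn2. They were chosen by symbol from the 22298 genes of the count table, with earlier results of these data known. All 10 were found and passed the filter on low counts. RNA-seq was performed on brown adipose tissue (BAT) of C57BL/6 mouse fetuses (C57BL/6J in the study's methods) at E18.5, all labelled male, with 2 libraries from fetuses of dams drinking tap water (control) and 2 from fetuses of dams given 20% (w/v) fructose water through gestation (fructose). The comparison asked how maternal fructose intake altered expression of these genes in fetal BAT. The number of fetuses or litters behind a library is not given in the sources used here, so the p-values measure only the spread between these libraries.

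Respiring mitochondria release superoxide, which the superoxide dismutases turn into hydrogen peroxide. Catalase, the glutathione peroxidases and the peroxiredoxins then reduce the peroxide, the glutathione peroxidases with electrons from glutathione and the peroxiredoxins mostly with electrons from thioredoxins. Brown fat is packed with mitochondria, and peroxide is known to act there both as a source of damage and as a signal in thermogenesis.

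Counts on genes totalled from 18542897 to 23645147 per library. The lowest count of any of the 10 genes was 3315, whose counting error (its square root) is 1.74%, so the spread between libraries rather than the depth limited their precision. Against the label male, the summed counts of 4 Y-linked genes (Ddx3y, Eif2s3y, Kdm5d, Uty) were 422 and 390 in control and 0 in both fructose libraries, so the maternal drink and the content of Y-linked transcripts cannot be told apart in any result here. The brown adipocyte markers Ucp1 and Fabp4 were abundant in every library, at no less than 9610 and 5309 CPM (counts per 1000000 counts of a library, with TMM normalization), whereas the hepatocyte markers Alb, Afp and Ahsg had at most 2 counts. The whole list of 10 liver markers, of which 2 passed the filter on low counts, summed to 667 and 295 CPM in control. In fructose it summed to 461 and 481 CPM. Summed over the lists of markers, erythroid genes stood at 19213 and 15301 CPM in control against 11772 and 12147 CPM in fructose, skeletal muscle genes at 244 and 331 against 778 and 573 CPM, and macrophage genes at 223 and 168 against 168 and 179 CPM. The share of counts on mitochondrially encoded genes was 5.89% and 6.49% in control against 10.8% and 11.2% in fructose. In bulk tissue, fewer cells of a type and less RNA per cell cannot be told apart.

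In fetal BAT of fructose-fed dams, Gpx1, Gpx3, Gpx4, Prdx5 and Txn2 fell and none of the 10 genes rose. These 5 calls were all lost when trends of the fold change on transcript length and GC content, described further on, were removed, and Sod2 and Prdx1 were then the 2 genes called lower. In the fit without that removal, the 3 glutathione peroxidases had log2 fold changes from -0.57 to -0.51, and the mitochondrial thioredoxin Txn2 fell the least of the 5, by 0.27 on the log2 scale. The superoxide dismutases Sod1 and Sod2 and the peroxiredoxin Prdx1 had lower levels in both fructose libraries than in both control libraries without passing the test, and Cat and Prdx3 had overlapping groups. These calls come from edgeR's quasi-likelihood test over 12888 tested genes, at a Benjamini-Hochberg adjusted p under 0.05. By this rule 5 of the 10 antioxidant genes were lower and 0 higher, where 26.2% of all tested genes were called, 10.7% lower and 15.5% higher. That is 2001 genes higher and 1379 lower, a split that was 2242 to 857 when libraries were scaled by size only and 506 to 554 when both trends were removed. With the study's thresholds, an unadjusted p under 0.05 and a fold change above 1.3, 4 of the 10 were lower (Txn2 was not) and 0 higher, where 23.8% of all tested genes passed, 6.18% lower and 17.6% higher. These thresholds were applied here to the edgeR fit, whereas the study applied them to DESeq2. The groups did not overlap for 8 of the 10 genes, all of them lower in fructose. Of all tested genes, 65.1% had groups that did not overlap, a share that takes both directions together. The median log2 fold change of the 10 genes was -0.26, beside 0.0025 over all tested genes. Their summed share of a library's counts was 0.682% and 0.674% in control against 0.584% and 0.575% in fructose.

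**Figure D1:**
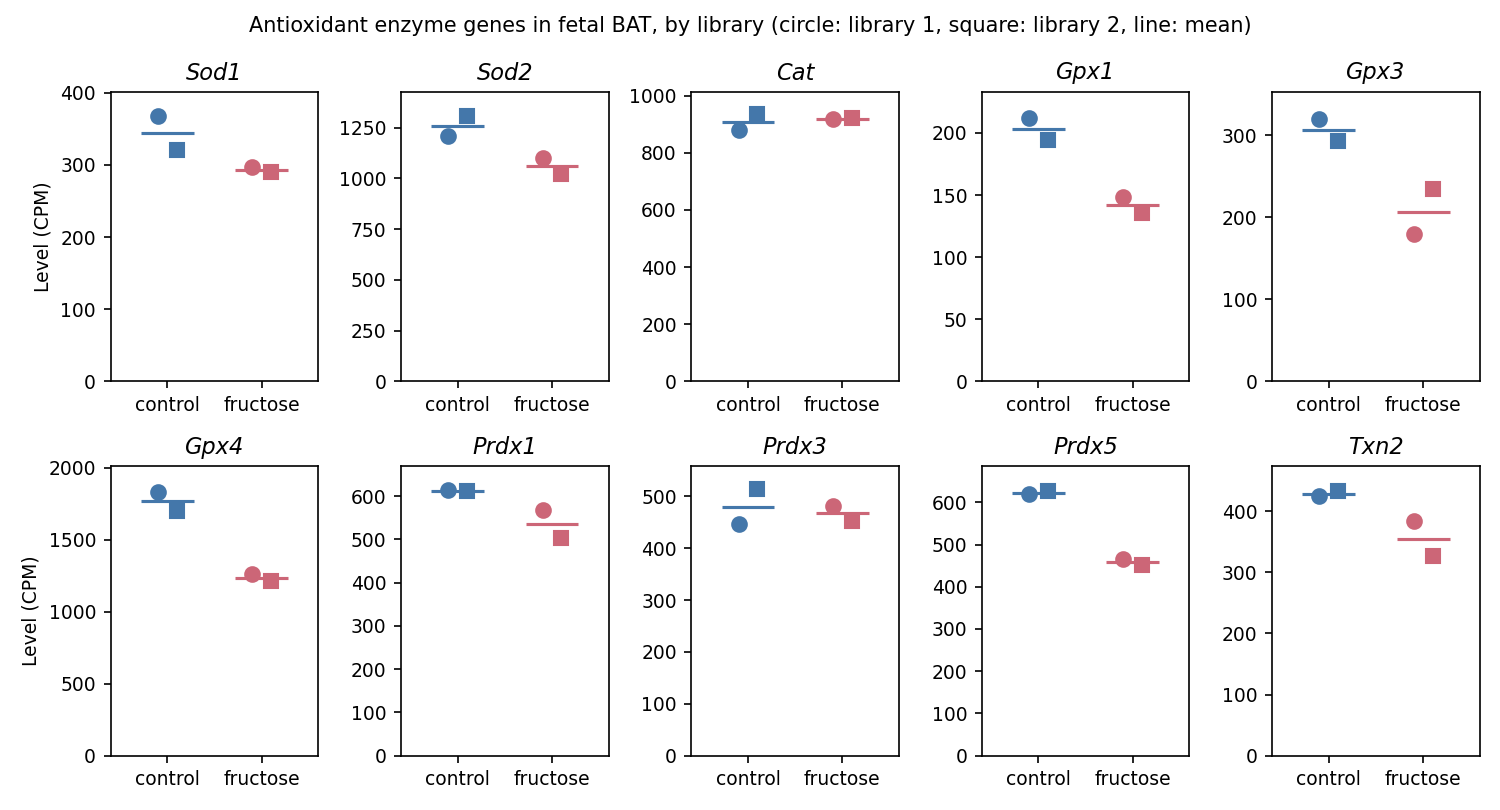
Level (CPM, linear axis from 0) of each antioxidant gene in the 2 control (blue) and 2 fructose (red) libraries, with lines at the group means. The groups lie apart with fructose lower for 8 genes, while those of Cat and Prdx3 overlap.

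One property shared by the 3 glutathione peroxidases, which the choice of genes did not use, is that each encodes a selenocysteine at its active site, by a TGA codon that is read through instead of ending translation. The stretch around this codon is shown for each, since these were the 3 members with the lowest log2 fold changes in the fit without removal of the trends. With both trends removed, the lowest were instead Sod2, Prdx1 and Sod1, at -0.75, -0.39 and -0.31. It is given 5′ to 3′ on the coding strand from GENCODE M21 transcripts (GRCm38, the assembly also named mm10), with the selenocysteine codon in capitals.
Gpx1: gtcgcgtctctcTGAggcaccacgatccgg
Gpx3: gtagccagctacTGAggtctgacagaccaa
Gpx4: gtggcctcgcaaTGAggcaaaactgacgta
The codon lies in exon 1 of Gpx1 (chr9:108339451-108339453), exon 2 of Gpx3 (chr11:54907256-54907258) and exon 3 of Gpx4 (chr10:80054737-80054739), all on the plus strand.

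Gpx1 (ENSMUSG00000063856, chr9:108338903-108340343), the cytosolic and mitochondrial peroxidase that is the most widely expressed of its family, had 212 and 194 CPM in control libraries 1 and 2 and 148 and 135 CPM in fructose libraries 1 and 2. Both fructose libraries were well below both control libraries. Gpx1 fell from a control mean of 203 ± 12.5 CPM to a fructose mean of 142 ± 9.05 CPM (each SD, n = 2), with a log2 fold change of -0.52 (standard error, SE, 0.09, edgeR adjusted p = 0.0019), or a change of -30.2% with a 95% interval from -38.8% to -20.4%. With both trends removed it was -0.16 and not called (edgeR adjusted p = 0.25).

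Gpx4 (ENSMUSG00000075706, chr10:80047166-80056439) reduces lipid hydroperoxides within membranes and is known as the brake on ferroptosis, a form of cell death driven by lipid peroxidation. Its levels were 1832 and 1702 CPM in control and 1261 and 1215 CPM in fructose. The control libraries differed by more than the fructose libraries, and the groups were far apart. The log2 fold change was -0.51 (SE 0.09, edgeR adjusted p = 0.0022), with a 95% interval from -0.71 to -0.32. With both trends removed it was -0.11 and not called (edgeR adjusted p = 0.51). A transcribed pseudogene of its name, Gpx4-ps2, is annotated but not in the count table, and the treatment of reads matching both is not given in the sources used here.

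Gpx3 (ENSMUSG00000018339, chr11:54902453-54910377) encodes the secreted peroxidase of plasma, which adipose tissue also makes. It stood at 320 and 293 CPM in control and at 179 and 234 CPM in fructose. Fructose library 1 was the lowest, and the spread within fructose, 38.8 CPM (SD, n = 2), was the widest relative to its mean among the 10 genes. Its log2 fold change of -0.57 (SE 0.11, edgeR adjusted p = 0.0049) was -0.38 without fructose library 1 and -0.77 without fructose library 2, and was called in both cases, but with both trends removed it was -0.28 and not called (edgeR adjusted p = 0.19).

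Of Prdx1, Prdx3 and Prdx5, Prdx5 alone passed the test on the counts as deposited, and Prdx1 alone with both trends removed. Prdx5 (ENSMUSG00000024953, chr19:6906697-6910106), an atypical peroxiredoxin of mitochondria, peroxisomes and cytosol, had 619 and 626 CPM in control and 466 and 452 CPM in fructose. The libraries of each group were close together, and the groups did not overlap. It fell by 0.44 on the log2 scale (SE 0.08, edgeR adjusted p = 0.0032), a change of -26.2% with a 95% interval from -34.8% to -16.6%. With both trends removed it was at -0.17 and not called (edgeR adjusted p = 0.22). Its exons overlap those of Trmt112 on the opposite strand, which had between 389 and 455 counts per library against 10545 to 11733 for Prdx5. How the counting treated strand is not given in the sources used here.

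Prdx3 (ENSMUSG00000024997, chr19:60864051-60874556), the peroxiredoxin confined to the mitochondrial matrix, had 447 and 514 CPM in control and 481 and 453 CPM in fructose. All 4 values lay within one range, and the fructose libraries fell between the control libraries. The log2 fold change was -0.04 (edgeR adjusted p = 0.79), and its 95% interval in percent ran from -15.3% to 11.8%. Scaled by library size only, without TMM, its log2 fold change was 0.022. Within each library the count of Prdx5 was 1.39 and 1.22 times that of Prdx3 in control and 0.969 and 0.997 times in fructose. These ratios did not overlap between groups, although an exact permutation test of 2 libraries against 2 cannot go below p = 0.33. A ratio within a library cancels the library's scaling but not a trend on length or GC content. As fitted, the log2 fold change of Prdx5 minus that of Prdx3 was -0.40. This difference became -0.44 on removal of the length trend, -0.06 on removal of the GC content trend and -0.17 on removal of both.

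Prdx1 (ENSMUSG00000028691, chr4:116685544-116700822), the abundant cytosolic peroxiredoxin and a known target of the oxidative stress factor NRF2, had 614 and 612 CPM in control and 568 and 502 CPM in fructose. Both fructose libraries were lower, fructose library 2 more so. The log2 fold change of -0.20 (SE 0.09) did not pass the test (edgeR adjusted p = 0.12), and its 95% interval ran from -0.39 to -0.0021. Removal of the GC content trend gave a call of lower in fructose (-0.56, edgeR adjusted p = 0.0036), as did removal of both trends (-0.39, edgeR adjusted p = 0.033).

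Txn2 (ENSMUSG00000005354, chr15:77915047-77929006) encodes the thioredoxin of mitochondria, which passes electrons to Prdx3 and Prdx5. It was measured at 425 and 433 CPM in control and 383 and 327 CPM in fructose. Fructose library 2 was the lowest and carried much of the difference. The log2 fold change of -0.27 (SE 0.09, edgeR adjusted p = 0.048) lay just inside the threshold, and without fructose library 2 it was -0.16 and not called (edgeR adjusted p = 0.46). Nor was it called when scaled by library size only (-0.21, edgeR adjusted p = 0.091), when genes needed 10 counts in every library (-0.26, edgeR adjusted p = 0.052), or with both trends removed (-0.06, edgeR adjusted p = 0.73).

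Sod2 (ENSMUSG00000006818, chr17:13006846-13040063), the manganese dismutase of the mitochondrial matrix, stood at 1207 and 1305 CPM in control and 1098 and 1020.4 CPM in fructose. The nearest libraries of the 2 groups, control library 1 and fructose library 1, were 1207 and 1098 CPM. Its log2 fold change was -0.25 (SE 0.09, edgeR adjusted p = 0.063), with a 95% interval from -0.44 to -0.05, and DESeq2 called it lower (adjusted p = 0.021), as did edgeR without control library 1 (log2 fold change -0.30, adjusted p = 0.0064).

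Sod1 (ENSMUSG00000022982, chr16:90220754-90226329), the copper and zinc dismutase of cytosol and intermembrane space, had 367 and 320.03 CPM in control and 296 and 290.2 CPM in fructose. Control library 1 was the highest, and the fructose libraries were almost equal. The log2 fold change of -0.23 (SE 0.09) was not called (edgeR adjusted p = 0.078), and it was -0.32 and called without control library 2 (edgeR adjusted p = 0.0039) but -0.13 without control library 1. The ratio of Sod2 to Sod1 counts within a library was 3.29 and 4.08 in control and 3.71 and 3.52 in fructose, with overlapping groups. Scaf4, which overlaps Sod1 on the opposite strand but shares no exon with it, had 478 to 702 counts per library.

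Cat (ENSMUSG00000027187, chr2:103453849-103485160), the peroxisomal enzyme that splits hydrogen peroxide without a reducing partner, had 878 and 935 CPM in control and 917 and 919.8 CPM in fructose. Fructose libraries lay inside the range of the control libraries. The change was 1.35%, with a 95% interval from -10.8% to 15.2% (log2 fold change 0.02, edgeR adjusted p = 0.89). Within each library the count of Gpx4 was 2.09 and 1.82 times that of Cat in control and 1.37 and 1.32 times in fructose, and the count of Gpx1 was 0.241 and 0.208 times that of Cat in control and 0.162 and 0.147 times in fructose. Neither ratio overlapped between the groups. As fitted, the log2 fold change of Gpx4 minus that of Cat was -0.53 and that of Gpx1 minus Cat -0.54, and with both trends removed these were -0.18 and -0.23.

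Per length of exon, Gpx4 was the most abundant of the 10 genes and Sod1 the least. On this scale (TPM, counts per kilobase of annotated exon scaled to the same sum in every library, with no TMM), Gpx4 had a mean over the 4 libraries of 2080 TPM (range 1725 to 2508). Cat with 835 TPM and Prdx3 with 766 TPM followed and had overlapping ranges, then Prdx5 with 604 TPM and Prdx1 with 451 TPM. The ranges of Prdx1 and Gpx3 (338 TPM), of Gpx3 and Gpx1 (285 TPM), of Gpx1 and Sod2 (276 TPM), and of Txn2 (222 TPM) and Sod1 (192 TPM) also overlapped over the libraries. Taken library by library, Cat was above Prdx3, Prdx1 above Gpx3 and Txn2 above Sod1 in 4 of 4 libraries, while Gpx3 was above Gpx1 in 3 of 4 and Gpx1 above Sod2 in 2 of 4. When the longest transcript of each gene was taken as its length, the first 5 genes and the last kept their places, while Sod2 and Txn2 stood above Gpx3 and Gpx1.

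**Figure D2:**
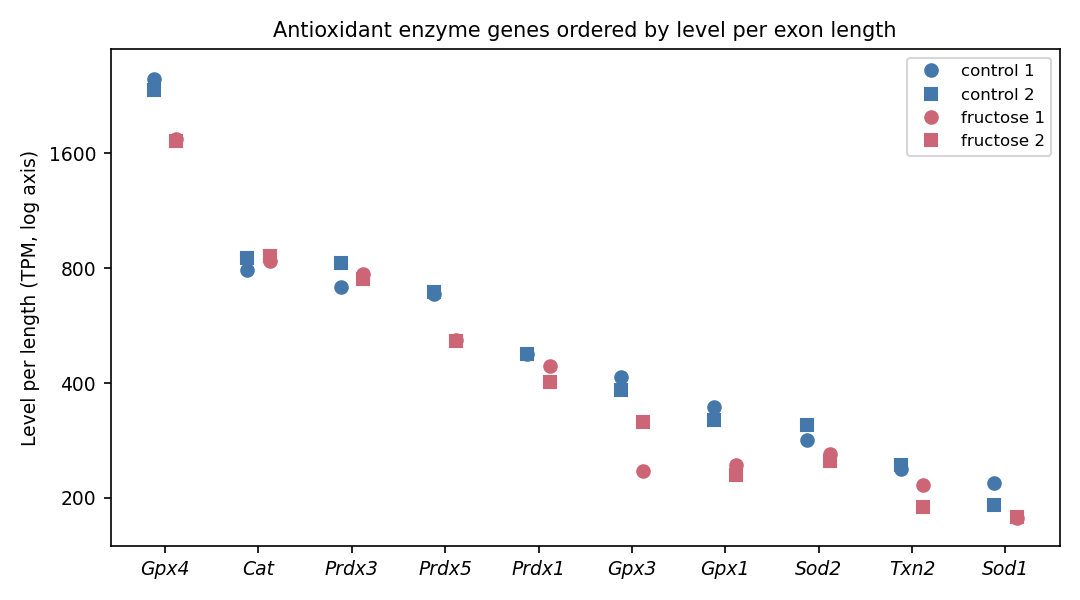
Level per exon length (TPM, log axis) of the 10 genes in each library, ordered by the mean over 4 libraries. Gpx4 stands apart at 1725 to 2508 TPM, and the fructose libraries (red) lie below the control libraries (blue) for all genes except Cat and Prdx3, whose groups overlap.

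The genes that were called differed from those that were not in base composition. The longest transcripts of the 5 called genes had a GC content of 53.5% to 60.2%, and those of the other 5 genes 42.2% to 48.7%, with a median of 50% over all tested genes. Of the 10 genes, 8 had a longest transcript shorter than the median of 3433 bases, Gpx4 (995 bases) and Gpx1 (1072 bases) being the shortest. Across 12884 tested genes of known length, which are not independent replicates, the log2 fold change rose with transcript length (Spearman's rho 0.50) and fell with GC content (rho -0.50). With the trends on length and GC content removed from each library, the log2 fold changes were -0.16 for Gpx1, -0.28 for Gpx3, -0.11 for Gpx4, -0.17 for Prdx5 and -0.06 for Txn2, and edgeR called none of these 5 (adjusted p from 0.19 to 0.73). Without those trends Sod2 was at -0.75 (SE 0.11, edgeR adjusted p = 0.0025) and Prdx1 one of -0.39 (SE 0.10, edgeR adjusted p = 0.033), and these were the 2 genes called lower. Sod1 remained at -0.31 (edgeR adjusted p = 0.057), and Cat and Prdx3 were at 0.07 and -0.0001, not called in either case. With the GC content trend alone removed, Gpx1, Gpx3, Gpx4, Prdx1, Prdx5, Sod1 and Sod2 were called lower. Which antioxidant genes were called lower therefore differed between these scalings, and none of the 10 was called higher under any of them.

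**Figure D3:**
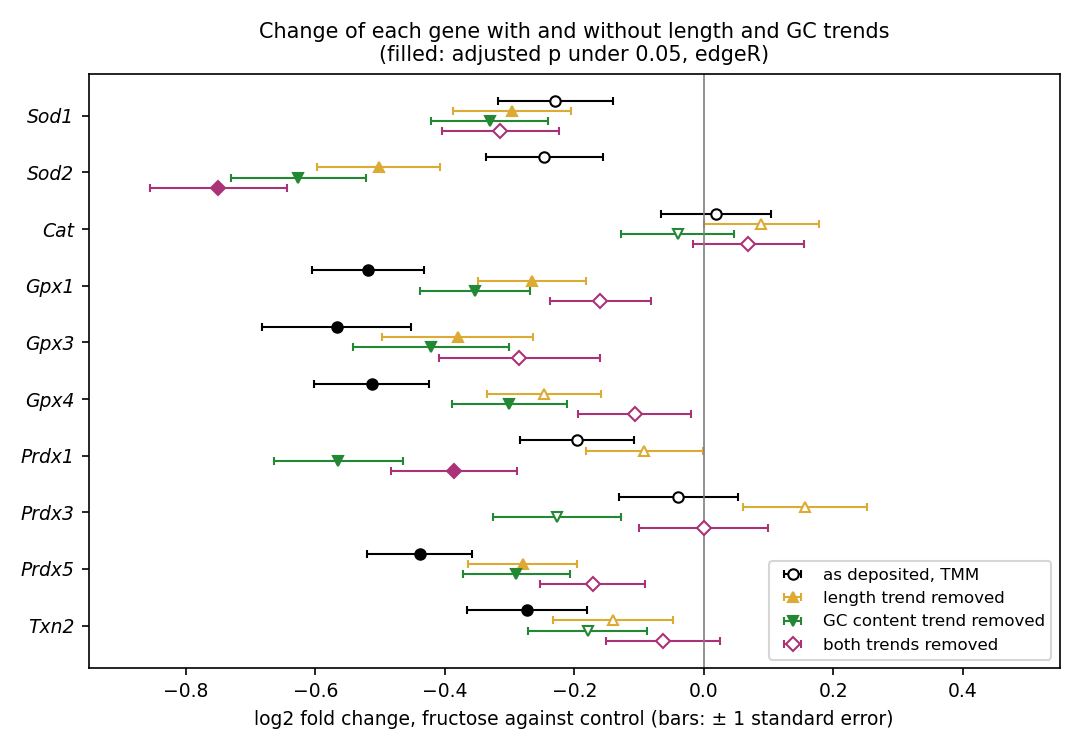
Log2 fold change, fructose against control, of each gene with ± 1 standard error, as fitted to the counts with TMM and after removal of the length trend, the GC content trend or both (filled symbols: adjusted p under 0.05, edgeR). Removing both trends moved Gpx4 from -0.51 to -0.11 and Sod2 from -0.25 to -0.75, while Cat stayed near 0.

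NRF2 binds the antioxidant response element, and the promoters of the 10 genes were searched for its core, TGACNNNGC (read as GCNNNGTCA on the other strand), in RefSeq windows (GRCm38.p6) from 250 bases before to 50 after each annotated start. All 10 genes had a window, 13 in all since Gpx4 had 4. Prdx1 and Sod1 held a match, each in its only window, and the windows of the other 8 genes held none. Of all 32851 windows, 12.4% held a match. This share is per window, not per gene, and was not compared with the 13 windows by a test. Neither gene was called as fitted, but both were called lower with the GC content trend removed, and Prdx1 also with both trends removed. The stretches with a match are shown for both genes. They run 5′ to 3′ on the strand of the gene, with the match, here on the opposite strand, in capitals.
Prdx1: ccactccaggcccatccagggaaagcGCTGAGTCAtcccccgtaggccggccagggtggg
Sod1: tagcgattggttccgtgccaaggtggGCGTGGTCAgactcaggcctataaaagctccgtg
The match lies 133 to 125 bases before the start of Prdx1 (stretch shown, chr4:116685440-116685499) and 56 to 48 bases before that of Sod1 (chr16:90220680-90220739), both genes being on the plus strand. A match of letters does not show that NRF2 binds there.

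Lists of genes that work beside these enzymes held 136 tested genes, of which 31 (22.8%) were called lower and 14 (10.3%) higher, beside 10.7% and 15.5% of all tested genes. Scaled by library size only, 22 were lower and 16 higher, and with both trends removed 11 and 5. Among the other superoxide and peroxide enzymes, 4 of 7 tested genes were lower and none higher, with a median log2 fold change of -0.32. Ccs, the chaperone that loads copper into Sod1, fell from 101 and 104 CPM to 73.1 and 70.7 CPM (log2 fold change -0.51, standard error 0.08, edgeR adjusted p = 0.0013). The same direction held for Prdx2, the peroxiredoxin of red cells and cytosol, with 533 and 521 CPM in control against 410 and 381 CPM in fructose (log2 fold change -0.42, edgeR adjusted p = 0.0047), and for Gpx7 of the endoplasmic reticulum (log2 fold change -0.43, edgeR adjusted p = 0.011). Of the erythroid markers, 5 of 8 tested were called lower, among them Hbb-bs (log2 fold change -0.54, edgeR adjusted p = 0.0064), with a median of -0.53 over the list. Red cells also carry Gpx1, Prdx2, Sod1 and Cat, of which Cat had overlapping groups. The part of red cells in the values of Gpx1, Prdx2, Sod1 and Cat was not tested. Without fructose library 2, Prdx2 was at -0.36 and not called (edgeR adjusted p = 0.052). After removal of both trends, none of these 7 genes was called.

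Of 20 thioredoxin and glutaredoxin genes, 5 were lower and 1 higher, and the median log2 fold change was -0.17. Txnrd2, the mitochondrial reductase that recharges Txn2, had 148 and 154 CPM in control and 118 and 111 CPM in fructose, a log2 fold change of -0.40 (SE 0.08, edgeR adjusted p = 0.0049). Txn1, the cytosolic counterpart of Txn2, fell by 0.34 on the log2 scale (edgeR adjusted p = 0.017) and the glutaredoxin Glrx by 0.43 (edgeR adjusted p = 0.024). Over all the related lists, calls of lower went from 31 to 11 and calls of higher from 14 to 5 with both trends removed. Sesn3, a stress-induced regulator of peroxiredoxins and nutrient signalling, was higher by 0.40 (edgeR adjusted p = 0.036), but its log2 fold change was -0.11 with the trends removed. Srxn1, which restores overoxidized peroxiredoxins, had 15.6 and 16.9 CPM in control and 21.8 and 16.4 CPM in fructose and was not called (log2 fold change 0.23, edgeR adjusted p = 0.28). Txnip, the inhibitor of thioredoxin and the gene of the list with the most counts, ranged from 1359 to 2117 CPM with control library 1 far above the rest (edgeR adjusted p = 0.18). Single libraries decided several of these calls, which were lost for Txn1 without control library 1 (-0.23) or fructose library 1 (-0.31), for Glrx without control library 2 (-0.28) or fructose library 2 (-0.33), and for Sesn3 without control library 1 (0.39), fructose library 1 (0.43) or fructose library 2 (0.38).

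Glutathione synthesis and use held 6 genes called lower and none higher among 25 tested, with a median of -0.14. Gss, the last enzyme of glutathione synthesis, fell by 0.38 on the log2 scale (edgeR adjusted p = 0.015), Oplah, which returns oxoproline to glutamate, by 0.50 (edgeR adjusted p = 0.0034), and Mgst3, a membrane glutathione transferase and peroxidase, by 0.55 (edgeR adjusted p = 0.0011). Slc25a39, which brings glutathione into mitochondria, had the most counts of the list and a log2 fold change of -0.30 (edgeR adjusted p = 0.026), which was 0.02 with both trends removed. Gsr, the reductase that recharges glutathione for the glutathione peroxidases, was at 43.3 and 45.1 CPM in control and 43.1 and 39.2 CPM in fructose and was not called (log2 fold change -0.10, edgeR adjusted p = 0.44). Mgst3, Oplah and Gss were still called lower without the trends, at -0.29, -0.37 and -0.40 (edgeR adjusted p = 0.039, 0.029 and 0.027). The call was lost for Gss without control library 2 (-0.24) and for Slc25a39 without fructose library 2 (-0.22).

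The NADPH-supplying enzymes, which feed both the glutathione and the thioredoxin system, had 2 genes higher and 1 lower among 13 tested, with a median log2 fold change of 0.04. Me1, cytosolic malic enzyme, rose from 181 and 131 CPM in control to 302 and 226 CPM in fructose, a log2 fold change of 0.76 (SE 0.15, edgeR adjusted p = 0.0044) that was 0.64 and still called with the trends removed. Idh2 of mitochondria fell by 0.33 on the log2 scale (edgeR adjusted p = 0.02), but not with the trends removed (-0.07, edgeR adjusted p = 0.71). Nnt was higher in the fit (log2 fold change 0.94, edgeR adjusted p = 0.024), at only 32 to 102 counts per library, and is known to carry a deletion in C57BL/6J mice. It is annotated under 2 overlapping identifiers between which the counting could have split its reads. Idh2 was not called without fructose library 1 (-0.32) or fructose library 2 (-0.32), nor Nnt without control library 2 (0.67), fructose library 1 (0.90) or fructose library 2 (0.98).

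Regulators and targets of NRF2 were called in both directions, 4 higher and 3 lower of 19 tested, with a median of -0.01. Bach1, the repressor that competes with NRF2 for the response element, had 6.49 and 5.66 CPM in control and 11.4 and 11.5 CPM in fructose (log2 fold change 0.91, standard error 0.16, edgeR adjusted p = 0.0024). Cul3, a subunit of the ligase that marks NRF2 for degradation, rose by 0.70 (edgeR adjusted p = 0.0025) and the small partner protein Mafg by 0.46 (edgeR adjusted p = 0.0098). The other gene called higher was Aox1 (0.31, edgeR adjusted p = 0.049). Nfe2l2, which encodes NRF2, and Keap1 were not called (0.004 and -0.08, edgeR adjusted p = 0.98 and 0.53). Lower genes were Blvrb (-0.42, edgeR adjusted p = 0.0041) and Hmox1 (-0.41, edgeR adjusted p = 0.047) of haem breakdown and Ftl1, the ferritin light chain (-0.42, edgeR adjusted p = 0.015). Fth1, the ferritin heavy chain and the gene of the list with the most counts, was not called (-0.24, edgeR adjusted p = 0.066). Without the trends, Bach1 (0.63) and Mafg (0.44) were still called higher, and none of Cul3, Blvrb, Hmox1 or Ftl1 was called. Hmox1 was at -0.14 without control library 1 and at -0.38 without fructose library 2, and Mafg at 0.37 without fructose library 1, not called in any of these fits.

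Selenoproteins and the genes that insert selenium had 6 genes lower and 4 higher among 20 tested, with a median of -0.16. Sephs2, which makes the selenium donor and is itself a selenoprotein, stood at 536 and 631 CPM in control and 449 and 443 CPM in fructose (log2 fold change -0.39, standard error 0.09, edgeR adjusted p = 0.012). Trnau1ap, a partner of the selenocysteine tRNA, fell by 0.41 on the log2 scale (edgeR adjusted p = 0.0057), whereas Secisbp2l and Sepsecs of the same machinery rose by 0.82 and 0.48 (edgeR adjusted p = 0.0012 and 0.022). Selenot, a thioredoxin-like selenoprotein of the endoplasmic reticulum, rose from 31.3 and 26.8 CPM to 54.8 and 60.03 CPM, a log2 fold change of 0.98 (SE 0.10, edgeR adjusted p = 0.00019), and Selenoh and Selenom fell by 0.45 and 0.44 (edgeR adjusted p = 0.0083 and 0.035). Counted after these values were seen over every gene with an annotated selenocysteine, 20 genes were tested. Of these, 10 were lower, Gpx1, Gpx3 and Gpx4 among them, and 2, Selenot and Selenop, higher. Of all tested genes, 10.7% were lower and 15.5% higher. Gpx1, Gpx3 and Gpx4 were not called with both trends removed. The other 17 had 7 genes lower and a median log2 fold change of -0.19. With both trends removed, Selenot (0.55) and Secisbp2l (0.46) were still called higher, and Sephs2, Trnau1ap and Sepsecs were not called. Calls were also lost for Selenoh without fructose library 2 (-0.40), for Sepsecs without control library 1 (0.39) or fructose library 2 (0.42), and for Selenom without control library 1 (-0.37), fructose library 1 (-0.47) or fructose library 2 (-0.40).

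The peroxisome, where Cat resides, had 5 biogenesis and membrane transport genes lower and 2 higher of 21 tested, with a median of -0.15. Pex6, which recycles the import receptor, had the most counts and fell by 0.47 on the log2 scale (edgeR adjusted p = 0.0037) and Pex10 by 0.43 (edgeR adjusted p = 0.012). The fatty acid transporters Abcd2 and Abcd3 rose by 0.81 and 0.38 (edgeR adjusted p = 0.036 and 0.0098), but Abcd2 was at 1.44 without control library 1 and at 0.38, not called, without control library 2. Among the oxidant-producing enzymes, Cyba, a subunit of the phagocyte oxidase, was lower (-0.56, edgeR adjusted p = 0.017). Without fructose library 1, Abcd3 (0.28) was not called, nor were Pex10 (-0.31) and Cyba (-0.44) without fructose library 2. None of Pex6, Abcd2, Abcd3 and Cyba was called with both trends removed.

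**Figure D4:**
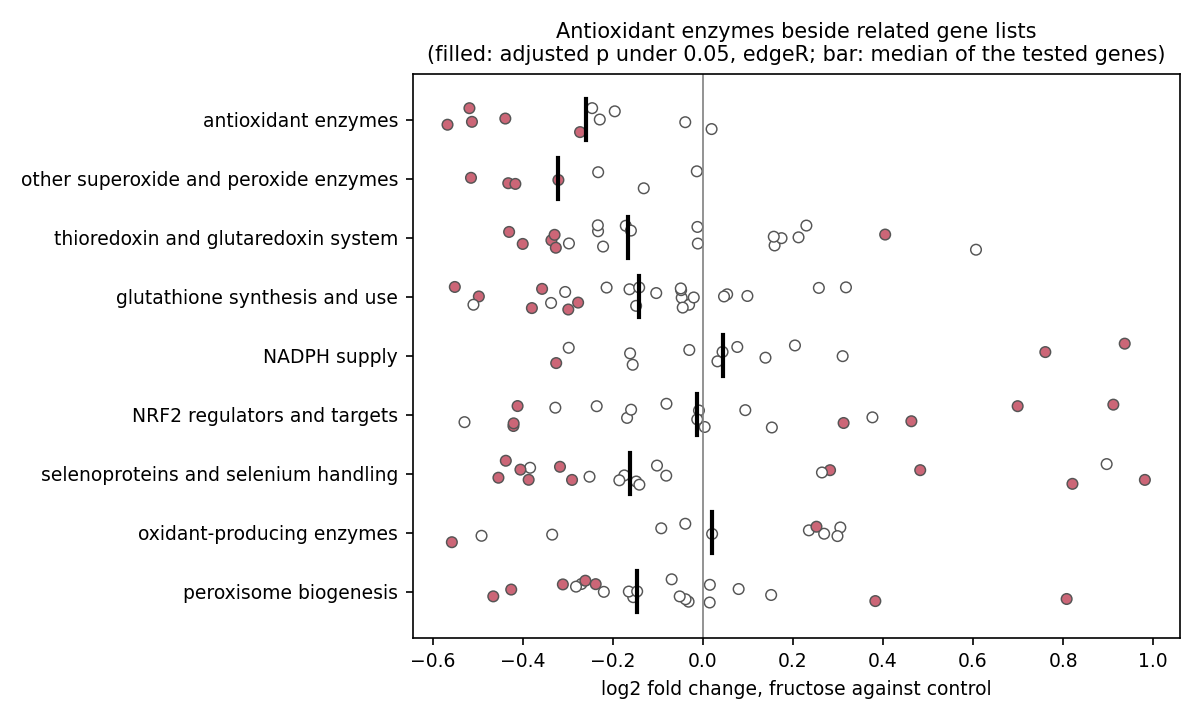
Log2 fold change, fructose against control, of every tested gene of the antioxidant enzymes and of 8 related lists (filled: adjusted p under 0.05, edgeR; black bar: median). The antioxidant enzymes (median -0.26) and the other superoxide and peroxide enzymes (median -0.32) lie mostly left of 0, while the NADPH-supplying and NRF2 lists have medians of 0.04 and -0.01.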

How the data were processed

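RNA was sequenced by Illumina. The authors filtered reads with Fastp, mapped them to mm10 with Bowtie2 (2.0.0.5) and Tophat (2.0.0), assembled transcripts with StringTie (2.2.0) and Cuffmerge, and deposited raw counts per gene, 1 column per library. The tool, strand setting and annotation used for counting are not given in the sources used here. Of 22298 identifiers, 22255 matched GENCODE M21 (GRCm38). The 4 library tables equalled the series table. Genes kept by filterByExpr were tested with edgeR 4.0.16 (R 4.3.3), TMM, quasi-likelihood, two-sided, no covariate, Benjamini-Hochberg over all tested genes; intervals (95%) follow from the fitted standard errors. CPM uses TMM factors (0.972 to 1.04); a count of 0 allows up to 0.123 to 0.166 CPM (3 counts). Alternatives were DESeq2 1.42.0, other scalings and filters, the replicate number as a block, lowess removal (span 0.3) of length and GC content trends, and each library left out. The libraries of a group differed beyond sampling noise (chi-square per degree of freedom 13.1 and 8.45). The 10 genes and all lists were chosen with earlier results of these data known. Genes named from related lists were up to 3 called per direction by size of change, the one with the most counts, and Ccs, Txnrd2, Srxn1 and Gsr. Aox1, Nfe2l2 and Keap1 were named besides. Not all genes chosen by this rule are reported here.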

Additional observations from a re-analysis of the deposited data

How the results depend on the processing

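No antioxidant gene was called higher under any of the 17 alternatives. The number called lower, 5, was 2 with both trends removed, 2 with the length trend removed and the replicate block, and 3 with both trends removed and the block, and ranged from 4 to 6 as single libraries were left out. Leaving out a library leaves 1 in its group, assumed to vary like the other group. Calls over all tested genes, 2001 higher and 1379 lower, were 1279 higher with DESeq2, 857 lower by library size only, 1154 higher with the length trend removed (1086 higher and 809 lower with the block), 1091 higher with the GC content trend removed, and 506 higher and 554 lower with both removed (776 and 709 with the block). They ranged from 1266 to 2254 higher and from 527 to 1685 lower as libraries were left out, lowest without fructose library 2. Calls in the related lists, 14 higher and 31 lower, were 9 higher with DESeq2, 8 higher and 15 lower with the length trend removed (9 and 13 with the block), 7 higher with the GC content trend removed (8 with the block), and 5 and 11 with both removed (6 and 12 with the block), and ranged from 8 to 15 higher and 13 to 35 lower as libraries were left out. The cause of these shifts was not tested. The replicate block alone gave 5 antioxidant genes lower; the replicate numbers share no stated origin, and the deviations of same-numbered libraries correlated at -0.03 across genes.

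Directions turned in these cases, none of them called. The log2 fold change of Cat was -0.040 with the GC content trend removed, with and without the block, and ran from -0.025 (without control library 1) to 0.065 (without control library 2). That of Prdx3 was 0.022 by library size only, 0.16 with the length trend removed, with and without the block, and 0.0050 with both trends removed and the block, and ran from -0.14 (without control library 1) to 0.065 (without control library 2). Sesn3 went to -0.053 with the length trend removed and -0.11 with both, with and without the block, and Slc25a39 to 0.024 with both trends removed, with and without the block. Pgd, the NADPH-supplying gene with the most counts, went to -0.0024 with the GC content trend removed and the block and ran from -0.10 (without fructose library 1) to 0.24 (without fructose library 2), and Txnip ran from -0.58 (without control library 2, where it was called lower) to 0.057 (without control library 1). With the length of the longest transcript, mean levels were 151 TPM for Sod1, 372 for Sod2, 659.7 for Cat, 302 for Gpx1, 2839 for Gpx4, 472 for Prdx1, 605 for Prdx3, 557 for Prdx5 and 360.2 for Txn2.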
